A study of Homo sapiens with 8 samples.

Results

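The genes described here encode the protein subunits of the mitochondrial respiratory chain and of ATP synthase. They were taken by name from the annotation as the protein-coding genes of complex I (NDUFA, NDUFB, NDUFC, NDUFS and NDUFV, without the assembly factors), complex II (SDHA to SDHD), complex III (UQCR and CYC1), complex IV (COX4 to COX8) and complex V (ATP5), with the subunit genes of mitochondrial DNA. The rule used names and no measured value, but it was set with earlier results of these data known. This gave 104 genes of the 64253 in the count tables, 91 in the nuclear genome and 13 in the mitochondrial genome. Complexes were assigned by gene name alone, so NDUFA4 and NDUFA4L2 are counted with complex I whatever complex their proteins join. RNA was sequenced from HCT-8, a human colon adenocarcinoma cell line, in 4 groups of 2 libraries each. HCT-8 cells (sensitive to 5-fluorouracil, 5-FU) and HCT-8/FU cells (a 5-FU-resistant line of the same origin) grew in unconditioned medium. The groups CM of HCT-8 and CM of HCT-8/FU were both HCT-8 cells, kept in medium conditioned for 48 h by HCT-8 or by HCT-8/FU cells. HCT-8/FU is 1 resistant line, so a difference from HCT-8 is a difference between these lines, and no source used here names 5-FU in the medium of any group. The time that cells spent in conditioned medium is not stated there.

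The respiratory chain passes electrons from NADH (complex I) and succinate (complex II) through ubiquinone, complex III and cytochrome c to oxygen at complex IV. Complexes I, III and IV pump protons out of the mitochondrial matrix, and complex V, ATP synthase, lets them back in to make ATP. Most subunits are made in the cytosol from nuclear genes, but a small hydrophobic core of complexes I, III, IV and V is encoded by mitochondrial DNA and translated inside the organelle. Mitochondrial DNA is transcribed as long polycistronic RNAs that are cut at tRNA genes. Levels of the single mRNAs then depend on how each is processed, polyadenylated and kept stable, which involves proteins such as LRPPRC. 5-FU is an antimetabolite that inhibits thymidylate synthase and enters RNA and DNA.

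Libraries held 5804124 to 34881349 counts on genes, and in the 3 libraries HCT-8 replicate 1, HCT-8/FU replicate 2 and CM of HCT-8 replicate 1 between 19.96% and 29.6% of records were not aligned, against 3.58% to 4.43% in the other 5. These 3 are also the shallowest libraries. Of 8 epithelial markers, KRT8, the most abundant, lay at 4720 to 5869 counts scaled to a common library total (CPM) and EPCAM at 298 to 502.3, whereas CEACAM5 reached at most 0.836. Of 8 markers of leukocytes, fibroblasts, endothelium and smooth muscle, PTPRC, CD3E and COL1A2 were at 0 counts in every library and COL1A1 was highest at 8.19 to 13.8 CPM. Summed CPM of the epithelial list was 10660 to 11600 in CM of HCT-8 and 9305 to 9750 in the other 3 groups, and of the other list 16.7 to 21.9 over all libraries. No source states that replicates were separate cultures, so p-values measure the spread between these libraries, which may be technical.

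The compact mitochondrial genome sets a limit on single genes, and the clearest case is shown here. MT-ATP8 and MT-ATP6 share 46 bases, chrM:8527-8572 on the plus strand (GRCh38), that start MT-ATP6 and end MT-ATP8, shown with the start codon of MT-ATP6 first.
MT-ATP8/MT-ATP6 shared stretch: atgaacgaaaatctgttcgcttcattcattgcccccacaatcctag
The shared bases are 22.2% of MT-ATP8 and 6.76% of MT-ATP6. MT-ND4L and MT-ND4 share 7 bases. Reads that lay wholly in such a stretch could not be given to a single gene. MT-ND6 is the only member on the light strand, and the downstream part of the MT-ND5 transcript runs over it in antisense. The strand setting of the counting was not given in the sources used here, so reads of MT-ND6 and of that antisense RNA cannot be told apart. Of the 91 nuclear genes, 19 shared at least 20% of their exonic bases with exons of other genes, among them ATP5ME (61.3%, opposite MYL5) and NDUFS7 (51.4%).

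Nuclear subunit genes sit on many chromosomes and have been described as targets of NRF1, of GABP (an ETS factor) and of YY1, so their promoters were searched for 3 short cores on both strands: GCATGCGC for NRF1, CCGGAAGT for ETS factors and AAGATGGC for YY1. The windows ran from 250 bases before to 50 after the annotated start, and 71 members with a window of their own were scanned. The NRF1 core lay in 13 of them (18.3%) against 3.27% of 27305 promoters of all genes and 5.14% of 12326 promoters of genes tested here. The ETS core lay in 10 (14.1%) against 4.44% and 7.98%, and the YY1 core in 11 (15.5%) against 3.03% and 4.93%. The exon-free parts of 4 promoters are printed with cores of either strand in capitals, because COX5B, ATP5MC2 and ATP5PD differed between the conditioned media, while COX6A1 holds NRF1 cores and did not pass the test. The build is GRCh38.p14 and the sequences are RefSeq's.
COX5B, chr2:97645812-97646061, plus strand: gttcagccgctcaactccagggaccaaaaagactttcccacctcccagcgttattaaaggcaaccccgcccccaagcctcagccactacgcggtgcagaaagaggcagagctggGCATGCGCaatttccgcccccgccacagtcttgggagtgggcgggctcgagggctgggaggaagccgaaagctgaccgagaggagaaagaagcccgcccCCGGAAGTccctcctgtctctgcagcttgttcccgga
ATP5MC2, chr12:53676084-53676175, minus strand: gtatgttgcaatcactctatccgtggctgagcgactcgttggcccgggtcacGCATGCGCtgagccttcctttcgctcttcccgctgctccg
ATP5PD, chr17:75046986-75047183, minus strand: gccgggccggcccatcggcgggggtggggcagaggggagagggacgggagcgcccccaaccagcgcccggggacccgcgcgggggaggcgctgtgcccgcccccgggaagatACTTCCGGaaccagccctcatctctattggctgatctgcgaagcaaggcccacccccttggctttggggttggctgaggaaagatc
COX6A1, chr12:120437863-120438089, plus strand: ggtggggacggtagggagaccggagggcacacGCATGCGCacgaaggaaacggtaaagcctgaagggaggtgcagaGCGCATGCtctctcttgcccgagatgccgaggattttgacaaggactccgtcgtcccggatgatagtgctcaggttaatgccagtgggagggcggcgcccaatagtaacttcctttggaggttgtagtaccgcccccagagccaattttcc
A core is a match of letters and not a measured binding site.

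Of the 104 genes, 98 passed the filter on low counts, all 13 mitochondrial and 85 nuclear genes. The 6 others were NDUFC2-KCTD14 and COX7B2, at 0 counts in every library, and COX4I2, COX6A2, COX8C and ATP5MGL, at 0 to 4 counts. COX4I2, COX6A2, COX7B2 and COX8C are isoforms known from lung, striated muscle or testis. Per kilobase of transcript, the mitochondrial genes were far more abundant than the nuclear ones. Mean level over the 8 libraries had a median of 2803 CPM per kb over the mitochondrial genes (from 1479 for MT-ND3 to 11932 for MT-CO1) and of 37.7 over the nuclear genes. ATP5F1B, the catalytic beta subunit of ATP synthase, was the highest nuclear gene at 353.8 CPM per kb, and NDUFA9, of the complex I arm, the lowest at 0.617. NDUFA9 shares 1103 exonic bases with another gene on its strand, and its canonical transcript is 8356 bases long. Both can lower this value, so it may understate the mRNA of NDUFA9. Their part in it was not tested. The median by complex was 27.5 CPM per kb for the nuclear genes of complex I, 65.0 for complex II, 25.6 for complex III, 60.2 for complex IV and 43.1 for complex V.

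The 13 mitochondrial genes together took 4.44% to 6.87% of all counts on genes and the 91 nuclear genes 0.449% to 0.536%. The mitochondrial share was 5.37% and 4.94% in HCT-8 against 4.44% and 5.06% in HCT-8/FU, while CM of HCT-8 had 6.87% and 5.56% and CM of HCT-8/FU had 4.78% in both libraries. The first of the CM of HCT-8 libraries stood highest. The ratio of mitochondrial to nuclear subunit counts, which needs no scaling between libraries, was 11.3 and 10.8 in HCT-8 and 9.57 and 9.91 in HCT-8/FU, so these groups did not overlap (log2 difference -0.18). The ratio in CM of HCT-8 was 12.8 and 10.8, against 10.6 and 10.7 with CM of HCT-8/FU (log2 difference -0.14). Without CM of HCT-8 replicate 1 that difference was -0.02, so it rests on this library. These sums are given as a description, with no test. In bulk RNA, fewer cells of a type and less RNA per cell cannot be told apart.

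**Figure D1:**
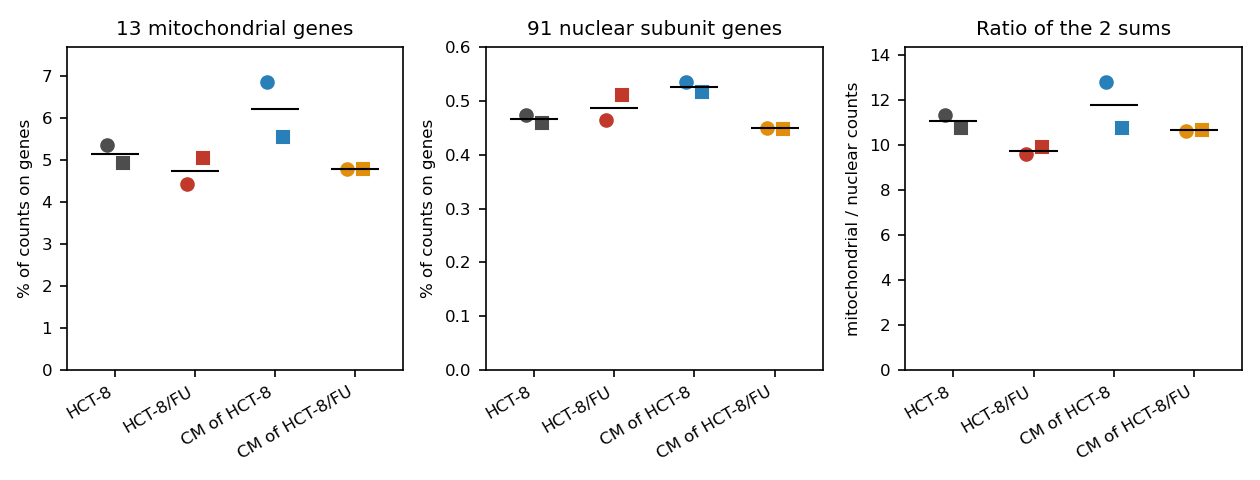
Share of counts on genes taken by the 13 mitochondrial genes (left, %), by the 91 nuclear subunit genes (middle, %) and the ratio of these sums (right, linear axes from 0), for each library (circle, replicate 1; square, replicate 2; line, group mean). The ratio is 9.57 and 9.91 in HCT-8/FU, below the other 6 libraries, and highest at 12.8 in CM of HCT-8 replicate 1.

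Whether subunit mRNAs differ between resistant and sensitive cells was asked first, in HCT-8/FU against HCT-8. Of the 7 mitochondrial genes of complex I, 4 fell in HCT-8/FU, led by MT-ND6, MT-ND5 and MT-ND1, while nuclear subunit genes moved little as a group and held single large changes. A gene is said to have risen or fallen where its adjusted p was at most 0.05 (quasi-likelihood test of edgeR, adjusted by Benjamini-Hochberg over 20305 genes), and to be a differentially expressed gene (DEG) where its log2 fold change was also at least 0.58 in size. Of the 13 mitochondrial genes 5 fell (38.5%), against 18.1% of all genes tested, and 3 were lower DEGs (23.1%), against 8.12%. None rose in edgeR, where 0 were higher at an unadjusted p under 0.05, and 0 rose in DESeq2 (all genes: 18.6% rose and 13.2% were higher DEGs). Their median log2 fold change was -0.24, with 12 of 13 below 0, beside 0.01 over all genes.

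MT-ND5 (chrM:12337-14148, plus strand), the largest proton-pumping subunit of complex I, lay at 5021 and 4653 CPM in HCT-8 and at 2590 and 3348 in HCT-8/FU. The log2 fold change was -0.71 (SE 0.10, edgeR adjusted p = 4.81e-05) and ran from -0.91 to -0.54 when each library was left out. MT-ND6 (chrM:14149-14673, minus strand), a membrane subunit of complex I, lay at 1454 and 1186 CPM in HCT-8 and at 670 and 895.9 in HCT-8/FU (-0.76, SE 0.12, edgeR adjusted p = 0.000183). MT-ND1 (chrM:3307-4262, plus strand), which lines the ubiquinone-binding site, lay at 3045 and 2629 CPM and at 1741 and 2051 (-0.58, SE 0.12, edgeR adjusted p = 0.00163). In none of these did the groups overlap, and in each the second HCT-8/FU library was nearer to HCT-8 than the first. That second library had 19.96% of records not aligned, against 3.72% in the first. Without HCT-8/FU replicate 1, the deeper library, 3 of 13 genes fell and 0 were DEGs, with MT-ND5 at -0.54, MT-ND6 at -0.57 and MT-ND1 at -0.48.

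MT-ND2, another proton-pumping subunit of complex I, and MT-CO1, the catalytic subunit of complex IV, fell less, by 0.27 and 0.24 on the log2 scale (edgeR adjusted p = 0.0216 and 0.0226). The other 8 genes did not pass. MT-ND3 and MT-ATP8 stood at -0.45 (SE 0.22) and -0.40 (SE 0.21). MT-ND4 stood at -0.20, MT-CYB of complex III at -0.11, MT-ATP6 at -0.13, MT-CO2 at -0.13 and MT-CO3 at -0.01, and MT-ND4L at 0.18 was the only one above 0.

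The make-up of mitochondrial RNA was described as well, as a comparison within each library and with no test. MT-ND5 was 8.82% and 9.14% of the counts of the 13 genes in HCT-8 and 6.17% and 6.83% in HCT-8/FU. MT-ND1 was 5.35% and 5.16% against 4.15% and 4.18%, and MT-ND6 2.55% and 2.33% against 1.60% and 1.83%. MT-CO3 took a larger part in HCT-8/FU (11.8% and 11.9%) than in HCT-8 (10.3% and 9.77%), and so did MT-ND4L (3.55% and 3.59% against 2.74% and 2.58%). MT-CO1, the most abundant gene, took 34.8% and 36.0% in HCT-8 and 36.6% and 34.4% in HCT-8/FU, and the groups overlapped. Shares lower in both HCT-8/FU libraries than in either HCT-8 library were those of MT-ND1, MT-ND5, MT-ND6 and MT-ATP8, and the higher ones those of MT-CO2, MT-ATP6, MT-CO3, MT-ND4L and MT-CYB. In CM of HCT-8 against HCT-8, 2 shares were higher in this way, 2 were lower and 9 overlapped. Shares of the same total are bound together, so lower shares of some genes raise those of others. How often groups of 2 libraries fail to overlap over all genes was not counted.

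**Figure D2:**
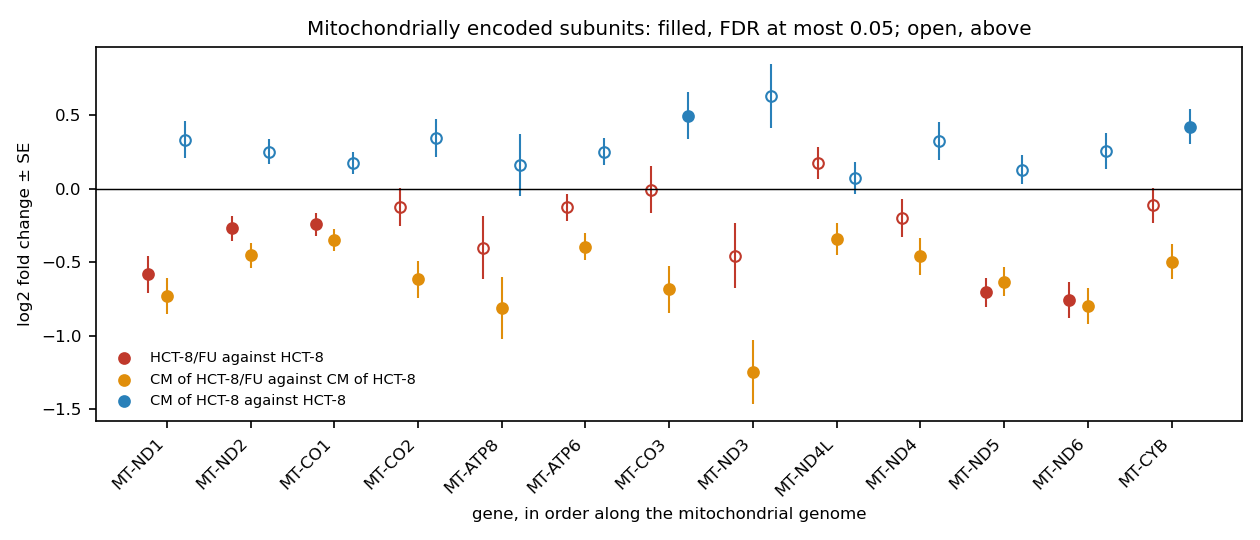
Log2 fold change of the 13 mitochondrially encoded subunit genes (points, with bars of ± SE) in their order along the mitochondrial genome, for HCT-8/FU against HCT-8 (red), CM of HCT-8/FU compared with CM of HCT-8 (orange) and CM of HCT-8 against HCT-8 (blue), with filled points where the adjusted p was at most 0.05. All 13 orange points lie below 0, MT-ND3 lowest at -1.25, whereas 5 red points are filled and all 13 blue points lie above 0.

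Among the 85 nuclear genes, 3 rose in HCT-8/FU (3.53%) and 13 fell (15.3%), fewer on the rising side than the 18.6% of all genes and close to the 18.1% on the falling side. The higher DEG was NDUFA5 and the lower DEGs were COX7A2L, NDUFA4L2 and NDUFA11 (3.53% against 8.12%). The median log2 fold change was -0.03, with 44 genes below 0 and 41 above. These counts depended on scaling: with CM of HCT-8 replicate 2 as the reference library of the normalisation, 7 nuclear genes rose and 5 fell, and over all genes 4402 rose and 2840 fell in place of 3770 and 3672. Mitochondrial genes then fell in 3 of 13 cases with 2 DEGs. They also depended on single libraries, with 0 nuclear genes higher and 7 lower without HCT-8 replicate 2, 6 and 3 without HCT-8/FU replicate 1, and 6 and 17 without replicate 1 or without replicate 2 of CM of HCT-8 (edgeR). By complex, 1 gene rose and 5 fell of 39 in complex I, 1 rose of 4 in complex II, 2 fell of 10 in complex III, 1 rose and 4 fell of 13 in complex IV, and 2 fell of 19 in complex V.

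COX7A2L (chr2:42333546-42425088, minus strand), a relative of the complex IV subunit COX7A2 known as a factor of respiratory supercomplexes, had the smallest adjusted p of the members. Its level was 230.5 and 196.1 CPM in HCT-8 but 94.7 and 105.1 in HCT-8/FU. CM of HCT-8 gave 191.2 and 146.3, and CM of HCT-8/FU gave 103 and 99.7. HCT-8/FU libraries were both below all 4 libraries of HCT-8 and CM of HCT-8. The log2 fold change was -1.10 (SE 0.12, edgeR adjusted p = 2.93e-06) and stayed between -1.24 and -0.99 with each library left out. With values corrected for GC content and length over all genes (the GC and length correction) it was -1.23.

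NDUFA4L2 (chr12:57234903-57240715, minus strand), a paralog of the NDUFA4 subunit known as a gene induced by hypoxia-inducible factor, lay at 10.0 and 13.9 CPM in HCT-8 and at 4.99 and 4.51 in HCT-8/FU. The libraries in conditioned medium lay between, at 8.52 and 8.85 in CM of HCT-8 and at 7.86 and 9.21 with CM of HCT-8/FU. HCT-8/FU had a log2 fold change of -1.35 (SE 0.21, edgeR adjusted p = 0.000119). NDUFA11, an accessory subunit of the membrane arm of complex I, lay at 10.4 and 11.9 CPM in HCT-8 and at 7.41 and 7.86 in HCT-8/FU (-0.59, SE 0.17, edgeR adjusted p = 0.0123). NDUFA11 shares 467 exonic bases with another gene on its strand, beside a canonical transcript of 575 bases, so its counts may cover only part of its mRNA. Its adjusted p was above 0.05 when HCT-8 replicate 2 was left out (0.134) and when HCT-8/FU replicate 1 was (0.117).

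NDUFA5, an accessory subunit of the matrix arm of complex I, rose from 28.8 and 26.1 CPM in HCT-8 to 45.3 and 46.6 in HCT-8/FU (0.76, SE 0.15, edgeR adjusted p = 0.00102). Without HCT-8 replicate 2 its edgeR adjusted p was 0.0513. NDUFA5 has a GC content of 36.1%, the lowest of the members, and its log2 fold change was -0.00 after the GC and length correction, so this rise is not seen apart from the GC and length trend. SDHA, the flavoprotein of complex II, lay at 111.5 and 113.4 CPM in HCT-8 and at 134.6 and 137.1 in HCT-8/FU (0.27, SE 0.08, edgeR adjusted p = 0.0116). COX6C, a small subunit of complex IV, lay at 36.6 and 29.9 CPM against 38.4 and 51.5 (0.42, SE 0.15, edgeR adjusted p = 0.0345), and its groups did not overlap.

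**Figure D3:**
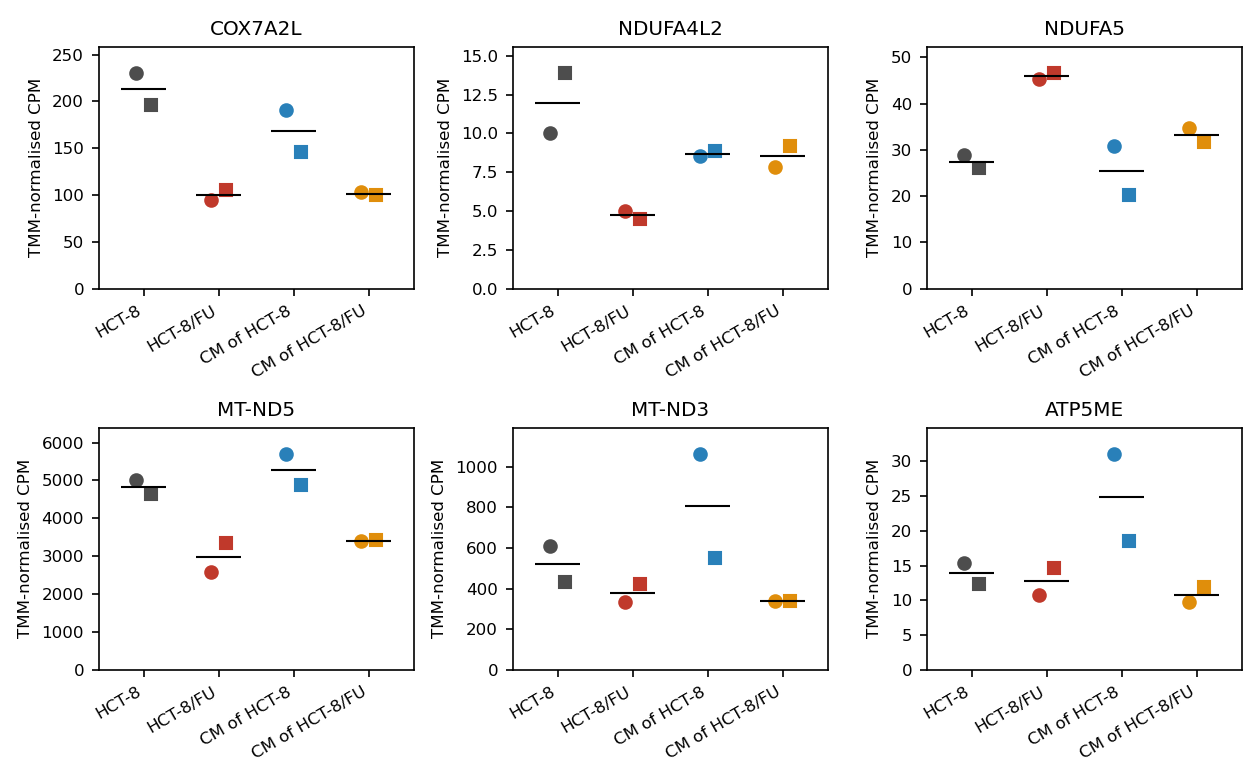
TMM-normalised CPM (linear axes from 0) of 6 member genes in each library (circle, replicate 1; square, replicate 2; line, group mean). COX7A2L is near 100 CPM in both libraries of HCT-8/FU and of CM of HCT-8/FU, NDUFA4L2 is lowest in HCT-8/FU, and MT-ND3 and ATP5ME are highest in CM of HCT-8 replicate 1.

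The other nuclear genes that fell did so by smaller amounts. In complex I they were NDUFA1, NDUFB9 and NDUFB11, at -0.46, -0.52 and -0.31. In complex III they were UQCRC1, a core protein (-0.21), and UQCRFS1, the Rieske iron-sulfur protein (-0.25), and in complex IV COX4I1 (-0.22), COX6B1 (-0.44) and COX7A2 (-0.31). In complex V they were ATP5F1A, the alpha subunit (-0.22), and ATP5MC2, which encodes the c subunit of the proton-driven ring (-0.47, edgeR adjusted p = 0.0055). Members at the edges of their complexes that did not pass were NDUFV2 at 1.05 (SE 0.50, 0.527 to 3.01 CPM), UQCRB at 0.29, UQCRHL at 0.37, UQCR11 at -0.40, COX7A1 at -1.18 (SE 0.71, under 1 CPM in every library), COX7B at 0.21, ATP5IF1 at 0.29, ATP5MF at 0.42 and ATP5MF-PTCD1 at -0.35. SDHB, SDHC and SDHD stood at 0.03, 0.07 and -0.06. COX6B2, a testis isoform, lay at 1 to 2.28 CPM over the libraries and stood at -0.52 (SE 0.40).

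The GC and length correction moved the nuclear genes down. Their median became -0.16, 1 gene rose and 11 fell, while 6 mitochondrial genes fell and their median became -0.37. Over all 19857 genes so corrected, 2207 rose and 3087 fell, with a median of -0.03. The nuclear subunit gene that then rose was CYC1, the cytochrome c1 of complex III (0.29). The correction also takes away a real change where that change runs with GC content or length.

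Whether medium from resistant cells changes HCT-8 cells was asked with CM of HCT-8/FU, compared with CM of HCT-8. In cells kept in CM of HCT-8/FU every mitochondrial subunit gene fell, and so did 41 of 85 nuclear ones, from 1 of 4 in complex II to 8 of 13 in complex IV. All 13 mitochondrial genes fell (100%), against 8.49% of all genes, and 7 were lower DEGs (53.8%), against 1.28%. Of the 85 nuclear genes 41 fell (48.2%) and 18 were lower DEGs (21.2%). In edgeR 0 members rose, 2 nuclear and 0 mitochondrial genes were higher at an unadjusted p under 0.05, and 0 rose in DESeq2, beside 11.2% of all genes that rose and 7.97% that were higher DEGs. The median log2 fold change was -0.62 over the mitochondrial and -0.34 over the nuclear genes, beside -0.06 over all genes.

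The size of this difference rested in large part on CM of HCT-8 replicate 1. In that library genes deviated from their mean over the 8 libraries by a median of 0.60 on the log2 scale over the mitochondrial genes and 0.24 over the nuclear genes, and in CM of HCT-8 replicate 2 by 0.10 and 0.13. It was also the library with the largest share of records not aligned (29.6%), against 3.58% and 3.91% in CM of HCT-8/FU. CM of HCT-8 also had the highest summed level of the epithelial markers, 10660 to 11600 CPM against 9683 to 9750 in CM of HCT-8/FU, with 4 of the 8 markers lower in CM of HCT-8/FU. The part of these in the result was not tested. Without CM of HCT-8 replicate 1, 10 mitochondrial genes fell with 2 DEGs at a median of -0.31, and 29 nuclear genes fell and 1 rose (NDUFA5), with 2 lower and 1 higher DEG at a median of -0.28. Without CM of HCT-8 replicate 2, 43 nuclear genes fell and 29 were lower DEGs. The direction was the same either way and all 13 mitochondrial genes stayed below 0. With CM of HCT-8 replicate 2 as the reference library of the normalisation, 12 mitochondrial and 25 nuclear genes fell and 1 nuclear gene rose, and over all genes 2626 rose and 732 fell in place of 2282 and 1723.

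**Figure D4:**
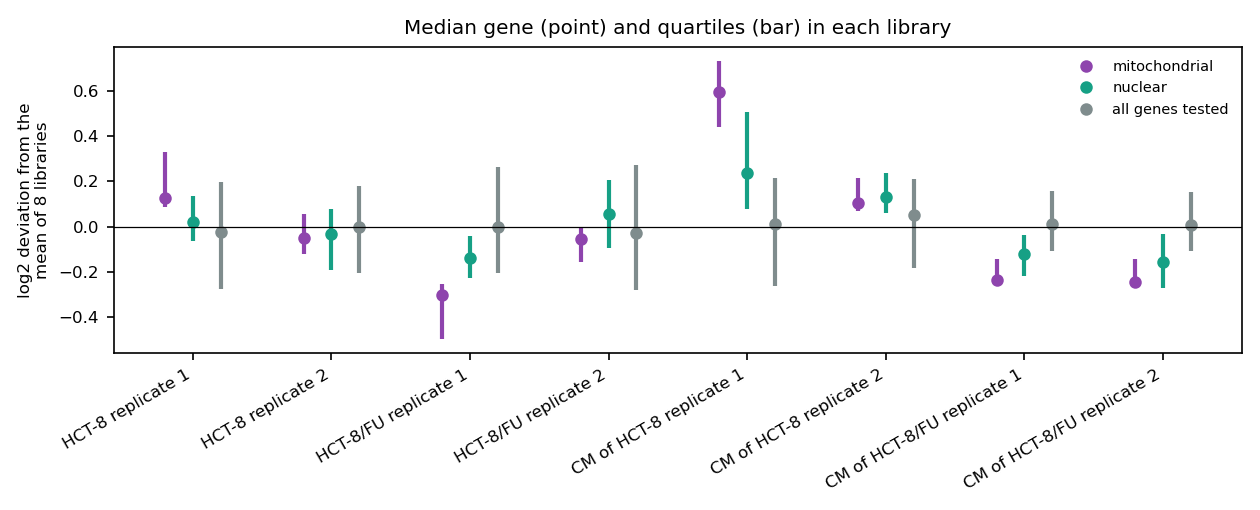
Deviation of each gene's log2 level in a library from its mean over the 8 libraries, as the median (point) and quartiles (bar), for 13 mitochondrial genes, 85 nuclear genes and all 20305 genes tested. CM of HCT-8 replicate 1 stands apart, with medians of 0.60 and 0.24, while the median over all genes stays near 0 in every library.

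MT-ND3, a small membrane subunit of complex I, had the largest fall of the mitochondrial genes. It lay at 1064 and 548.8 CPM in CM of HCT-8 and at 337.3 and 340.8 in CM of HCT-8/FU (-1.25, SE 0.22, edgeR adjusted p = 0.000811). The first CM of HCT-8 library stood far above the second, and without it the log2 fold change of MT-ND3 was -0.69. MT-ND6 lay at 1726 and 1425 CPM against 894.7 and 915.8 (-0.80, SE 0.12, edgeR adjusted p = 0.000262). MT-ND5 lay at 5701 and 4874 against 3393 and 3429 (-0.63, SE 0.10, edgeR adjusted p = 0.000315), and MT-ND1 at 4193 and 2960 against 2183 and 2133 (-0.73, SE 0.12, edgeR adjusted p = 0.000627). Both libraries of CM of HCT-8/FU were below both of CM of HCT-8 for each of these genes. Without CM of HCT-8 replicate 1, MT-ND6 stood at -0.65, MT-ND5 at -0.51 and MT-ND1 at -0.45, each still past the test.

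The other DEGs were MT-ATP8 (-0.81), MT-CO3 (-0.68) and MT-CO2 (-0.62). MT-ATP8 and MT-ATP6 encode parts of the membrane sector of ATP synthase, and MT-ATP6 fell by 0.39. MT-CO1 fell by 0.35, MT-ND2 by 0.45, MT-ND4 by 0.46, MT-ND4L by 0.34 and MT-CYB, the cytochrome b of complex III, by 0.49 on the log2 scale. MT-ND4L was the nearest to the threshold (edgeR adjusted p = 0.0402). Within the mitochondrial counts, MT-ND5 was 7.71% and 8.71% in CM of HCT-8 against 7.37% and 7.46% with CM of HCT-8/FU, and MT-ND1 5.67% and 5.29% against 4.74% and 4.64%. MT-CO1 was 31.8% and 34.9% against 36.5% and 36.9%, so its share was higher in CM of HCT-8/FU while its level was lower. Shares lower in both CM of HCT-8/FU libraries were those of MT-ND1, MT-CO2, MT-ND3, MT-ND5 and MT-ND6. The higher ones were those of MT-CO1 and MT-ND4L, and 6 overlapped. The share of MT-CO2 was thus lower here but higher in HCT-8/FU than in HCT-8.

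Of the nuclear genes, 15 of 39 fell in complex I, 1 of 4 in complex II, 6 of 10 in complex III, 8 of 13 in complex IV and 11 of 19 in complex V. Medians were -0.27, -0.18, -0.24, -0.46 and -0.45 in that order. Complexes IV and V thus held the lowest medians. Among the 68 tested genes that share less than 20% of their exonic bases with others, 38 fell and the median was -0.38. That share is of the exons of all transcripts of a gene, so this set is not free of overlap. It still holds NDUFA11 and NDUFS3, which share 467 and 721 bases with a gene on their strand. Their canonical transcripts are 575 and 894 bases long.

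**Figure D5:**
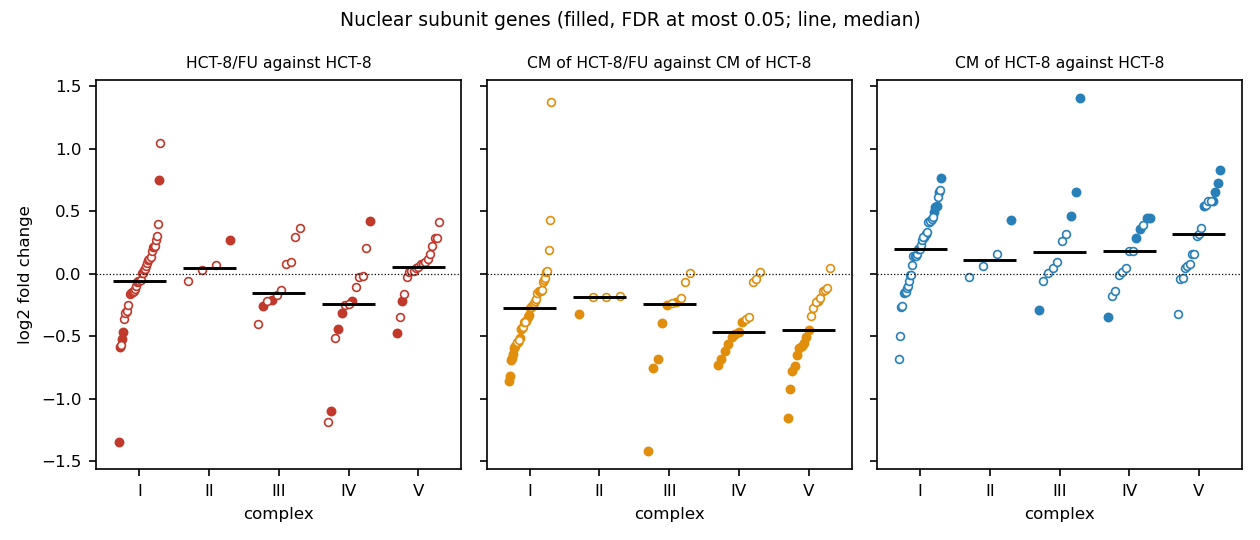
Log2 fold change of each tested nuclear subunit gene by complex in the 3 comparisons, filled where the adjusted p was at most 0.05, with the median of the complex as a line. For CM of HCT-8/FU compared with CM of HCT-8 (middle) 77 of 85 genes lie below 0 and in CM of HCT-8 against HCT-8 (right) 63 lie above 0, whereas HCT-8/FU against HCT-8 (left) has medians from -0.24 in complex IV to 0.06 in complex V.

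In complex V, ATP5ME, a subunit of the membrane part that links ATP synthase dimers, lay at 31.1 and 18.6 CPM in CM of HCT-8 and at 9.69 and 11.9 in CM of HCT-8/FU (-1.15, SE 0.22, edgeR adjusted p = 0.00148). HCT-8 (15.4 and 12.4) and HCT-8/FU (10.8 and 14.7) were near the lower group. ATP5MG, its neighbour in the membrane part, lay at 103.1 and 61.1 CPM against 41.8 and 43.3 (-0.92, SE 0.19, edgeR adjusted p = 0.00249). ATP5F1E (-0.74), ATP5MK (-0.78) and ATP5PD of the peripheral stalk (-0.65, 64.3 and 55.7 against 37.4 and 38.6 CPM) were DEGs too. ATP5MC2 lay at 88.9 and 70.5 CPM against 49.6 and 55 (-0.59, SE 0.11, edgeR adjusted p = 0.00164). ATP5IF1, the inhibitor of ATP synthase, fell from 93.5 and 74.3 CPM to 60 and 57.1 (-0.50). ATP5F1D, the delta subunit of the rotor, lay at 47 and 43.1 CPM against 45.6 and 46.8 and stood at 0.04, and ATP5PO stood at -0.11, neither past the test.

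In complex IV, COX7A2L fell again, by 0.73 on the log2 scale (SE 0.11, edgeR adjusted p = 0.000261), with the levels given above. COX6B1 lay at 91.3 and 65.7 CPM against 51.2 and 45.2 (-0.68, SE 0.14, edgeR adjusted p = 0.00253). COX5B, whose promoter is shown above, lay at 71.5 and 53.8 CPM against 38.8 and 41.9 (-0.61, SE 0.12, edgeR adjusted p = 0.0014). COX4I1, COX5A, COX7A2, COX7B and COX7C fell by 0.38 to 0.56. COX6A1, at 13.1 and 16.3 CPM against 15.5 and 14.7, stood at 0.01 and COX8A at -0.04. COX7A1 and COX6B2 stood at -0.06 and -0.36 with levels under 2.2 CPM.

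In complex III, UQCRHL, a copy of UQCRH whose reads may be shared with it, had the lowest value (-1.42, SE 0.44, edgeR adjusted p = 0.0328). It lay at 8.86 and 3.01 CPM in CM of HCT-8 and at 2.02 and 2.11 in CM of HCT-8/FU, and stood at -0.54 without CM of HCT-8 replicate 1. UQCR10 (-0.75) and UQCRH, the hinge protein (-0.68), were the other DEGs. UQCRC2, a core protein, lay at 114.3 and 119.6 CPM against 116.1 and 119.1 and stood at 0.01. UQCRB stood at -0.07. In complex I, NDUFA1 lay at 42.4 and 28.2 CPM against 19.4 and 18.5 (-0.86, SE 0.16, edgeR adjusted p = 0.00107) and NDUFS6 at 36.6 and 27.5 against 16.9 and 18.8 (-0.82, SE 0.15, edgeR adjusted p = 0.001). NDUFV2 at 1.38 (SE 0.51) and NDUFA5 at 0.43 (SE 0.15, edgeR adjusted p = 0.0538) stood highest without passing, and NDUFA4L2 stood at -0.03. NDUFV2 was near the floor, at 0.2302 and 1.017 CPM in CM of HCT-8 and at 2.085 and 1.849 in CM of HCT-8/FU. It shares 28.44% of its exonic bases with another gene on its strand. In complex II, SDHB fell by 0.32 and SDHA, SDHC and SDHD stood at -0.18, -0.19 and -0.17.

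The GC and length correction left 29 nuclear genes and 7 mitochondrial genes that fell in this comparison, 0 that rose, and medians of -0.39 and -0.68. Over all 19857 genes so corrected, 708 rose and 1075 fell, with a median of -0.08. Fitting the groups compared alone gave 18 nuclear and 7 mitochondrial genes that fell, with 9 and 3 DEGs. Over all 19295 genes of that edgeR fit, 501 fell and 81 were lower DEGs.

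Genes fell with and without a promoter core. Of 28 tested members with at least 1 of the 3 cores in their window, 12 fell and the median log2 fold change was -0.26, and of 39 without a core 23 fell and the median was -0.45. In HCT-8/FU against HCT-8, 2 of 28 and 9 of 39 fell. These are counts in one set of libraries and say nothing on whether a factor is bound.

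HCT-8/FU against HCT-8 and CM of HCT-8/FU compared with CM of HCT-8 share no library. Nuclear genes that fell in both were ATP5F1A, ATP5MC2, COX4I1, COX6B1, COX7A2, COX7A2L, NDUFA1, NDUFB9, NDUFB11 and UQCRC1, which are 10 of the 13 that fell in the first and 10 of the 41 in the second. The 5 mitochondrial genes that fell in HCT-8/FU also fell in the second comparison, where all 13 did. DEGs in both were COX7A2L, MT-ND1, MT-ND5 and MT-ND6. Of all 85 nuclear genes 48.2% fell in the second comparison, and of all genes 8.49%. The same overlap over all genes was not counted, and chance overlap was not tested.

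The third comparison, CM of HCT-8 against HCT-8, sets HCT-8 cells in medium of their own kind beside cells in unconditioned medium, and it shares libraries with each of the other comparisons. Many nuclear subunit genes were higher in CM of HCT-8. Of 85, 22 rose (25.9%), against 9.04% of all genes, and 2 fell (2.35%), against 10.4%, with 8 higher DEGs (9.41% against 3.86%) and 0 lower DEGs (4.29% of all genes). The median log2 fold change was 0.20 over nuclear and 0.26 over mitochondrial genes. Of the 13 mitochondrial genes 2 rose, MT-CYB by 0.42 (edgeR adjusted p = 0.0208) and MT-CO3 by 0.50 (edgeR adjusted p = 0.0409), 9 were higher at an unadjusted p under 0.05 and 0 lower. In DESeq2 with 4 groups 0 of the mitochondrial genes rose, and of the nuclear genes 10 rose and 2 fell. Over all 20305 genes 1249 rose and 2272 fell there. The direction of CM of HCT-8 against HCT-8 was thus opposite to that of CM of HCT-8/FU compared with CM of HCT-8, in which CM of HCT-8 is the reference.

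ATP5F1D was the member with the smallest p among the nuclear genes of complex V. It lay at 27.8 and 26.7 CPM in HCT-8 and at 47 and 43.1 in CM of HCT-8 (0.72, SE 0.12, edgeR adjusted p = 0.000694). It lay at 45.6 and 46.8 in CM of HCT-8/FU, so both conditioned media were above HCT-8, while HCT-8/FU (27.1 and 35.8) was not apart from it. SDHA lay at 159.1 and 145.3 CPM in CM of HCT-8 and at 136.3 and 131.2 in CM of HCT-8/FU, above the 111.5 and 113.4 of HCT-8 (0.43 in CM of HCT-8, SE 0.08, edgeR adjusted p = 0.00102). NDUFB10 of complex I lay at 26.5 and 28.4 CPM in HCT-8 and at 56.4 and 39.6 in CM of HCT-8 (0.77, SE 0.16, edgeR adjusted p = 0.00275). The other higher DEGs were NDUFB7 (0.65), UQCR10 (0.66), UQCRHL (1.41), ATP5IF1 (0.58), ATP5F1E (0.65) and ATP5ME (0.83). CYC1 rose by 0.46, NDUFV1 of the NADH-oxidising module by 0.43 and COX4I1 by 0.28. The genes that fell were UQCRC2 (-0.29) and COX7A2L (-0.34, edgeR adjusted p = 0.0443).

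Without CM of HCT-8 replicate 1, 13 nuclear genes rose and 3 fell, with 1 DEG, and without HCT-8 replicate 2, 4 rose and 2 fell, with 1 DEG. Mitochondrial medians were 0.06 without the first and 0.55 without CM of HCT-8 replicate 2. With the GC and length correction 4 nuclear genes rose and 1 fell, and 0 mitochondrial genes passed, beside 982 that rose and 1150 that fell of all 19857.

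The difference between the first comparisons was tested as well, as the log2 fold change in HCT-8/FU minus that in CM of HCT-8/FU. Of the nuclear genes 10 passed on the higher side (11.8%, against 5.15% of all genes) and 1, NDUFA4L2, on the lower side (6.42% of all genes). Leaving out CM of HCT-8 replicate 2 gave 32 nuclear genes on the higher side, and leaving out replicate 1 gave 12. When CM of HCT-8/FU replicate 2 was dropped 2 passed, and when HCT-8 replicate 2 was dropped 0 passed in edgeR. Of the mitochondrial genes MT-ND4L passed (0.52, SE 0.15, edgeR adjusted p = 0.0428). COX7A2L did not (-0.37, SE 0.16, edgeR adjusted p = 0.166), nor did MT-ND5 (-0.07, SE 0.14), MT-ND6 (0.04, SE 0.17) and MT-ND1 (0.15, SE 0.17).

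Genes that serve the respiratory chain were read from lists. Beside their counts stand the shares of all genes, of which 18.6% rose and 18.1% fell in HCT-8/FU, and 11.2% rose and 8.49% fell in CM of HCT-8/FU. Of 47 assembly factors 7 rose and 9 fell in HCT-8/FU, with a median of 0.04, and 3 rose and 3 fell in CM of HCT-8/FU, with a median of -0.11. NDUFAF8, a complex I assembly factor, lay at 6.06 and 6.18 CPM in HCT-8 but at 16.2 and 17.4 in HCT-8/FU, whereas CM of HCT-8 had 21.3 and 19.7 and CM of HCT-8/FU 17.9 in both libraries. HCT-8 alone was low, and the log2 fold change was 1.43 in HCT-8/FU (SE 0.15, edgeR adjusted p = 2.84e-06) and 1.73 in CM of HCT-8 against HCT-8. COX20, a chaperone of MT-CO2, rose by 0.86 in HCT-8/FU and by 0.39 with CM of HCT-8/FU. LYRM7, needed to insert the Rieske protein, rose by 0.99 and 1.14, with corrected values of 0.33 and 0.51 that did not pass. The corrected value of COX20 in CM of HCT-8/FU was -0.07.

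Of 15 tested genes of mitochondrial DNA transcription and replication 6 rose and 1 fell in HCT-8/FU, and 1 rose and 2 fell in CM of HCT-8/FU, with medians of 0.22 and 0.00. TFAM, which packages mitochondrial DNA and starts its transcription, lay at 23.6 and 19.9 CPM in HCT-8 but at 43.7 and 53.7 in HCT-8/FU, whereas CM of HCT-8 had 25.2 and 19.1 against 33.8 and 31.7 with CM of HCT-8/FU. It rose by 1.17 in HCT-8/FU (SE 0.14, edgeR adjusted p = 1.39e-05) and by 0.60 in CM of HCT-8/FU (SE 0.14, edgeR adjusted p = 0.00657). With the GC and length correction these were 0.53, which passed, and -0.02. POLRMT, the mitochondrial RNA polymerase, was the gene that fell in HCT-8/FU (by 0.35 on the log2 scale). MGME1, a nuclease of mitochondrial DNA, rose by 0.55 in HCT-8/FU, and TOP1MT, the mitochondrial topoisomerase, fell by 0.42 in CM of HCT-8/FU.

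Of 16 genes of mitochondrial RNA processing and stability 6 rose and 5 fell in HCT-8/FU and 2 rose in CM of HCT-8/FU. LRPPRC lay at 271.3 and 257.8 CPM in HCT-8 but at 418.8 and 399.8 in HCT-8/FU, whereas CM of HCT-8 had 230.3 and 191.6 against 326.2 and 329.9 with CM of HCT-8/FU. It rose by 0.63 and 0.64 (SE 0.08 in both), and its corrected values were -0.12 and -0.21, so the direction turned. FASTKD2 rose by 0.43 and 0.60, with corrected values of -0.15 and 0.03. SUPV3L1, the helicase of the mitochondrial RNA degradosome, fell from 77.7 and 72.8 CPM to 38.2 and 49.1 in HCT-8/FU (-0.82, SE 0.12, edgeR adjusted p = 5.54e-05, corrected -1.05).

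Of 10 regulators of mitochondrial biogenesis 3 rose and 2 fell in HCT-8/FU, and 1 rose and 2 fell in CM of HCT-8/FU. GABPA, the DNA-binding subunit of GABP, rose by 0.73 and 0.53 (corrected 0.18 and 0.01). PPRC1, a coactivator related to PGC-1, fell from 115.3 and 115.5 CPM to 70 and 69 in HCT-8/FU (-0.73, SE 0.08, edgeR adjusted p = 2.88e-06) and by 0.29 in CM of HCT-8/FU. MYC stood at -0.03 in HCT-8/FU and fell by 0.31 in CM of HCT-8/FU. Of 15 genes of electron carriers and coenzyme Q synthesis 3 rose and 2 fell in HCT-8/FU and 4 fell in CM of HCT-8/FU. COQ4 fell by 0.52 and 0.43, COQ8B by 0.52 in HCT-8/FU, and COQ5 by 0.62 in CM of HCT-8/FU. Of 14 genes of the citrate cycle 3 rose and 3 fell in HCT-8/FU, and 1 rose and 5 fell in CM of HCT-8/FU. SUCLA2, of succinyl-CoA synthetase, rose by 0.82 and 0.46 (corrected 0.33 and -0.01), and MDH2 fell by 0.41 in CM of HCT-8/FU.

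Other products of mitochondrial DNA and its nuclear copies were measured too. The ribosomal RNAs MT-RNR1 and MT-RNR2, which lie upstream of MT-ND1 on the same transcript, stood at -0.26 (edgeR adjusted p = 0.0596) and -0.32 (edgeR adjusted p = 0.0474) in HCT-8/FU, and both fell in CM of HCT-8/FU, by 0.41 and 0.42. MT-RNR2 lay at 6141 and 5545 CPM in HCT-8 but at 4591 and 4749 in HCT-8/FU, whereas CM of HCT-8 had 6659 and 4513 against 4228 and 4127 with CM of HCT-8/FU. A poly(A)-selected library catches these RNAs only in part. Of 6 tested mitochondrial pseudogenes of a nuclear insertion on chromosome 1, 3 fell in CM of HCT-8/FU, MTATP6P1 (-0.67), MTCO1P12 (-0.86) and MTND2P28 (-0.59), and 0 passed in HCT-8/FU in edgeR or at an unadjusted p under 0.05. MTATP6P1 lay at 382.1 to 827.5 CPM. MTND1P23 lay at 0.2566 to 1.58 CPM and passed in neither comparison. These copies are near-identical to mitochondrial genes, and how the counting split reads between them is uncertain.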

How the data were processed

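RNA-seq counts of 8 libraries were used, in 4 groups of 2 taken from the sample titles. The authors aligned paired reads of poly(A)-selected RNA to GRCh38 with HISAT2 and SAMtools 1.18, counted them per gene with HTSeq 0.11.2 and an Ensembl annotation, and the raw counts of each library were deposited. Lines of the deposited count tables that name no gene entered neither library sizes nor tests. Of all records, 3.58% to 29.6% were not aligned, 33.7% to 49.6% hit no feature, 1.15% to 1.57% were ambiguous, 2.24% to 3.48% not unique and 2.20% to 5.77% of low quality. At 5804124 to 34881349 counts per library, counting error differs between members and is larger in the shallow libraries. In HCT-8/FU replicate 2, NDUFA11 had 47 counts, NDUFA1 118 and ATP5F1B 4085. The authors' DESeq2 1.30.0 tables hold log2 fold changes, p-values and normalised means and were not used.

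Genes were filtered with filterByExpr and normalised by TMM (reference library HCT-8 replicate 2), and group means were fitted to all 8 libraries with edgeR 4.0.16 in R 4.3.3 (quasi-likelihood test, Benjamini-Hochberg adjustment over 20305 genes, thresholds of 0.05 and, for a DEG, 0.58 on the log2 scale, as in the study's methods). A standard error is the size of the log2 fold change over the root of its F statistic. Names, positions, lengths and GC contents are from GENCODE 44, in which 56105 of 64253 identifiers were found. Levels per kb use the canonical transcript. GC content and length were corrected by splines of 5 df per library in 19857 genes. Alternatives were DESeq2 1.42.0, other scalings and filters, the groups compared alone, a replicate block, a covariate marking libraries above 15% of unaligned records, and leaving out each library. The fits were tested on simulated data.

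Named are all mitochondrial genes, the highest and lowest 2 genes of each complex in the first 2 comparisons, DEGs in both, tissue-restricted isoforms, and from each list of 144 genes in all (143 matched, SCO2 not) the 2 with the smallest p in each. Other named genes, those in CM of HCT-8 against HCT-8 among them, were chosen after their values were seen. Members and lists were chosen with earlier results of these data known. TBRG4 stands for FASTKD4. A gene that this rule names in the list of the citrate cycle is not reported here.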

Additional observations from a re-analysis of the deposited data

Results flagged for a closer look

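The difference between the comparisons, the log2 fold change of HCT-8/FU against HCT-8 minus that of CM of HCT-8/FU compared with CM of HCT-8, passed an adjusted p of 0.05 in edgeR's quasi-likelihood test for 12 subunit genes and 3 genes of the lists. Among genes counted by name with complex I, NDUFA4L2 differed by -1.317, NDUFA8 by 0.6487, NDUFB10 by 0.792 and MT-ND4L by 0.5154. In complex II, SDHA differed by 0.4523, and in complex IV, COX6C by 0.7686. In complex V, ATP5IF1 differed by 0.7947, ATP5MG by 0.9976, ATP5PD by 0.6736, ATP5F1E by 0.836, ATP5MC3 by 0.7779 and ATP5MF by 0.7523. Of the lists, NDUFAF8 differed by 1.618, COX20 by 0.4707 and PPRC1 by -0.4416. NDUFA4L2 was lower in HCT-8/FU than in HCT-8 and close to equal in the conditioned media. The ATP synthase genes stood near or above 0 in HCT-8/FU and below 0 in CM of HCT-8/FU. With the GC and length correction, NDUFA4L2 was the only subunit gene of these with an adjusted p under 0.05, at -1.22. What the difference in either gene group comes from was not tested.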

How the results depend on the processing

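Counts here are DEGs of both directions, and fold changes are on the log2 scale. The limits are 2 libraries a group, 3 libraries with many records not aligned, and a scaling that moves the split between higher and lower calls. Counting on the adjusted p alone, HCT-8/FU against HCT-8 had 16 nuclear and 5 mitochondrial calls, CM of HCT-8/FU compared with CM of HCT-8 had 41 and 13, CM of HCT-8 against HCT-8 had 24 and 2, and the difference between the comparisons had 1 mitochondrial call. In CM of HCT-8/FU compared with CM of HCT-8, nuclear DEGs numbered 11 in DESeq2 and 9 in edgeR on the groups compared alone, and 7 with a term for libraries with many records not aligned, in place of 18. Mitochondrial DEGs there numbered 4 in DESeq2 with 4 groups, 3 in DESeq2 and 3 in edgeR on the groups alone, and 2 with that term, in place of 7. The ratio of mitochondrial to nuclear levels from means of per-gene log2 values was -0.2596 as a log2 difference. In CM of HCT-8 against HCT-8, nuclear DEGs numbered 5 with DESeq2's size factors, 5 in DESeq2 with 4 groups, 4 with the GC and length correction and 4 with that correction and the replicate block, in place of 8, and 1 mitochondrial gene was a DEG with no filter and 1 with the block. For the difference, 18 nuclear and 2 mitochondrial genes were past both thresholds with no filter, 1 nuclear gene with the GC and length correction, 1 with that and the block, and 1 mitochondrial gene with the block.

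With the GC and length correction, and with it and the replicate block, the direction turned for NDUFA5 (-0.003215 and -0.02119), FASTKD2 (-0.1517 and -0.1419) and LRPPRC (-0.1164 and -0.1155) in HCT-8/FU against HCT-8. In CM of HCT-8/FU compared with CM of HCT-8 it turned for COX20 (-0.06715 and -0.0681), LRPPRC (-0.2113 and -0.2102), SUCLA2 (-0.007915 and -0.01193), TFAM (-0.02171 and -0.02541) and UQCRC2 (-0.411 and -0.4083). The cause was not tested.

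Leaving out 1 library at a time, mitochondrial DEGs ranged from 0 to 3 in HCT-8/FU against HCT-8. In CM of HCT-8/FU compared with CM of HCT-8, nuclear DEGs ranged from 3 to 30, mitochondrial DEGs from 2 to 10, the mitochondrial median from -0.736 to -0.3067 and the ratio from -0.2679 to -0.0171. In CM of HCT-8 against HCT-8 they ranged from 1 to 22 and from 0 to 4, with the median from 0.06248 to 0.5486 and the ratio from -0.0365 to 0.2143. For the difference, they ranged from 0 to 24 and from 0 to 6.

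No source used here states whether replicate numbers pair the samples. Deviations of same-numbered libraries correlated at -0.09 (HCT-8 and HCT-8/FU), -0.03 (CM of HCT-8 and CM of HCT-8/FU) and 0.13 (HCT-8 and CM of HCT-8). HCT-8/FU with CM of HCT-8 gave -0.12, and CM of HCT-8/FU gave -0.01 with HCT-8 and -0.004 with HCT-8/FU. Libraries with many records not aligned bear different replicate numbers, so these values cannot decide on pairing. With the replicate block, calls at the adjusted p numbered 19 in place of 21 in HCT-8/FU against HCT-8, 54 in place of 54 in CM of HCT-8/FU compared with CM of HCT-8, with 51 shared, 26 in place of 26 in CM of HCT-8 against HCT-8, with 23 shared, and 13 in place of 12 for the difference.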
